A study of Mus musculus with 41 samples.

Results

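The cyclin family genes Ccni, Ccng1, Ccng2, Ccnl1, Ccnl2 and Ccny (6 genes) were followed in the mouse hippocampus through every probe set that carries one of these symbols in the array annotation. They had 20 probe sets of 45037 on the array (array controls left out), and 19 of these were among the 22519 probe sets bright enough to be tested. Ccni contributed 4 probe sets, Ccng1 3, Ccng2 2, Ccnl1 1, Ccnl2 3 and Ccny 7. The set was chosen by a measured value: Ccni had differed between high and medium mice in earlier results of these data, and the other genes are its relatives. Values of that comparison are therefore a description and carry no test.

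Hippocampal RNA was taken from 41 males, all C57BL/6J inbred mice, with 1 array for each and no treatment or allele beyond those of the strain. All mice went through the same behavioural battery from an age of 10 weeks, including 5 cognitive tests with 11 parameters, the last of them (passive avoidance) at 37 to 38 weeks, and RNA was taken 1 month later. The labels give 5 mice consistently ranked as high, 12 as medium and 8 as low in cognition, 14 mice ranked inconsistently and 2 with incomplete data, which stayed outside all comparisons. The groups therefore share genotype, sex and test history and differ in a behavioural rank, not in an intervention. One inconsistent mouse (replicate 2) also carries a medium description and was kept as inconsistent.

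Cyclins were named for proteins that accumulate and vanish with the cell cycle and switch on cyclin-dependent kinases. The members described here are called atypical because they are present in cells that no longer divide, such as neurons. Cyclin I, the product of Ccni, is abundant in brain and muscle and binds the neuronal kinase Cdk5 in mouse podocytes. Cyclins G1 and G2 (Ccng1, Ccng2) bind the phosphatase PP2A, and their genes are known targets of p53 and of FoxO factors. Cyclins L1 and L2 (Ccnl1, Ccnl2) are nuclear partners of Cdk11 that take part in pre-mRNA splicing. Cyclin Y (Ccny) sits at the plasma membrane with Cdk14 and Cdk16, acts on the Wnt co-receptor Lrp6, and has been described in rat hippocampal neurons as a brake on synaptic potentiation.

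Ccni and Ccng2 lie close together on chromosome 5 in the RefSeq annotation of mouse build GRCm38.p6, with 3 annotated genes between them, of which 1 (2010109A12Rik) is protein coding. Their promoter windows, from 250 bases before to 50 bases after the annotated start, are shown because these neighbouring genes had the non-overlapping values described further on. Capitals mark the letters TGTTTAC (a forkhead site) and GGGCGG or its reverse CCGCCC (a GC box), searched on both strands.
Ccni, chr5:93206446-93206745, minus strand: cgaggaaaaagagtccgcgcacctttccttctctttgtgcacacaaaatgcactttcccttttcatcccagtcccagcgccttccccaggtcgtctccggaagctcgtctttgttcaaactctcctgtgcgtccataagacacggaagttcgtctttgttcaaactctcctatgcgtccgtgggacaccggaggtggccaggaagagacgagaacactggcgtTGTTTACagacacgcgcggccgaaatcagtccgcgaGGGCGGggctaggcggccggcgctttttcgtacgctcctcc
Ccng2, chr5:93267323-93267622, plus strand: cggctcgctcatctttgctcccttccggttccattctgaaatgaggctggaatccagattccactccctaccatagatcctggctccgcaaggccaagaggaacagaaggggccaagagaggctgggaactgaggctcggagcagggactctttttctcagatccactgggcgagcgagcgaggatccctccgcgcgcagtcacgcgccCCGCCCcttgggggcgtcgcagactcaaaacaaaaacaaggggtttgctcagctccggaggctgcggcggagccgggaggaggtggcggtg
The Ccni window holds 27 CpG and the Ccng2 window 21, against a median of 7 over 32851 RefSeq promoter windows of the same length. Of all these windows, 85.8% hold at most 27 CpG and 76.9% at most 21. The letters TGTTTAC occurred once in the Ccni window and not in the Ccng2 window, and 3.65% of all windows hold them. Each of the pair holds 1 GC box, as do 35.7% of all windows, and neither window holds CCAAT, TGACGTCA (the cAMP response element) or CACGTG (an E-box). These letters describe the windows and were not tied to binding. Of the 6 genes, 5 matched the promoter table. The annotated spans of Ccni and its neighbour Septin11 overlap by 436 bases, and where the probes of each Ccni probe set fall was not analysed here.

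Values are given as log2(intensity + 16) after quantile normalization, so a level can be compared between mice for 1 probe set but not between probe sets. The deposited array medians ran between 22.4 and 55.2 intensity units. Neuronal markers (Snap25, Syt1, Rbfox3, Nefl) were bright on every array, with summed intensities of 19815 to 21655 in high, 21008 to 23491 in medium, 20914 to 22303 in low and 20037 to 21895 in inconsistent mice. The array labelled medium 9 stood apart: its median correlation with the other arrays was 0.976, its granule cell markers (Prox1, Dsp, C1ql2, Tdo2) summed to 90.4 where the other groups' lowest sums were 1134 in high, 786 in low and 1026 in inconsistent mice, and its striatal markers summed to 2924, against at most 1218 in high, 1210 in low and 1297 in inconsistent mice. The main differences that use the medium group are therefore also given without it. Choroid plexus markers were bright on 0 of 5 high, 4 of 12 medium, 3 of 8 low and 3 of 14 inconsistent arrays. Spike-in control probe sets divided the arrays into 3 groups found from the data, here A, B and C, which held 0, 1 and 4 of the high mice and 2, 5 and 5 of the medium mice. In bulk tissue, fewer cells of a type and less RNA per cell cannot be told apart.

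On 1 of the 4 Ccni probe sets the high mice lay below all medium mice, with the lowest value of the study in a high mouse. Probe set 1448334_a_at read 10.66, 10.51, 10.59, 10.64 and 10.53 in high mice 1 to 5. The 12 medium mice had 10.70 as their lowest, 10.89 as their median and 11.04 as their highest value, the 8 low mice 10.60, 10.79 and 10.88, and the 14 inconsistent mice 10.60, 10.82 and 11.02. After quantile normalization every high mouse was below every medium mouse, while the high values overlapped those of the low and inconsistent mice, as all other members did in those 2 comparisons. The deposited intensities of high and medium mice overlapped, at 1044 to 2092 and 1236 to 2622. The group means were 10.59 ± 0.07 in high (SD, n = 5), 10.89 ± 0.09 in medium (n = 12), 10.78 ± 0.09 in low (n = 8) and 10.85 ± 0.14 in inconsistent mice (n = 14). In that order from the top, medium, inconsistent and low mice differed by no more than 1 SD from each neighbour, and the high mean stood apart from the low mean by more than 1 SD.

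**Figure D1:**
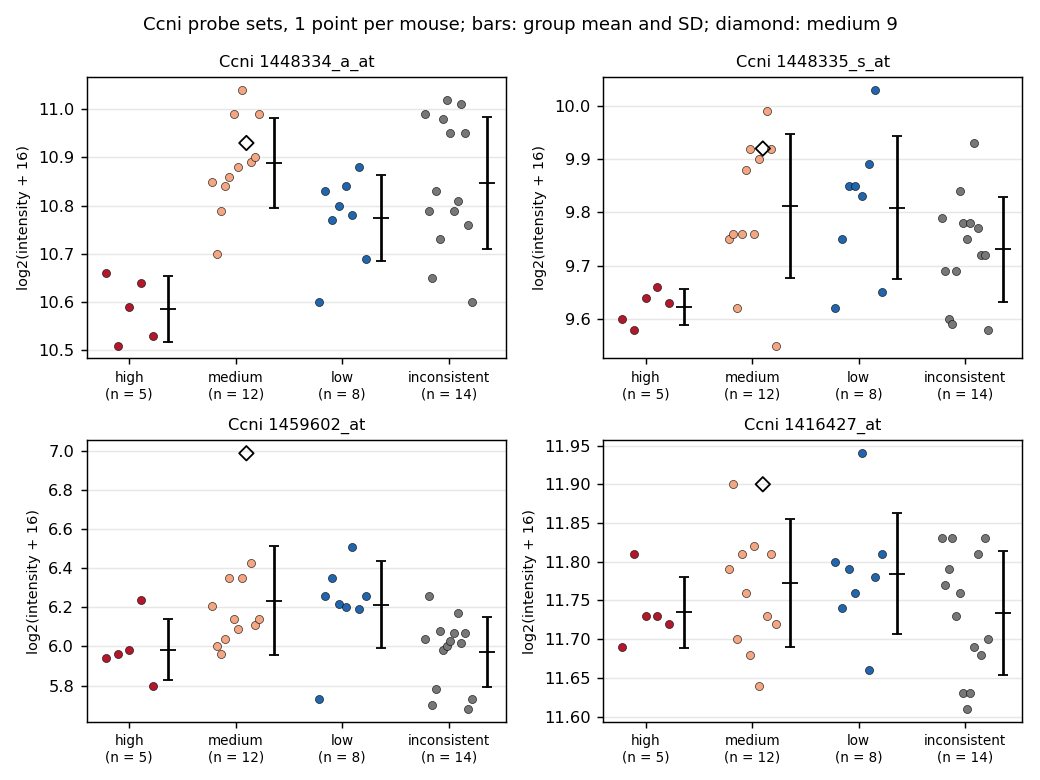
Levels of the 4 Ccni probe sets as log2(intensity + 16) on the y axis, 1 point per mouse, with high mice leftmost, then medium, low and inconsistent, and the group mean with its SD beside the points; the open diamond is the array medium 9. On 1448334_a_at all 5 high mice lie at or below 10.66 and all 12 medium mice at or above 10.70, whereas on 1416427_at the 4 groups overlap.

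The high minus medium difference of 1448334_a_at was -0.30 ± 0.06 (SE), about a 1.23-fold lower level in high mice. It was -0.30 without medium 9, -0.32 with the choroid-bright arrays left out, -0.24 within spike-in group B (1 high and 5 medium mice) and -0.35 within group C (4 and 5 mice). Over all tested probe sets, 0.0977% lay without overlap lower in high than in medium mice, and since this contrast chose Ccni nothing is read from that share. The same probe set differed by -0.19 ± 0.06 between high and low mice and by -0.26 ± 0.06 between high and inconsistent mice, which share the 5 high arrays with the choosing contrast. With median centring these were -0.11 and -0.14. Medium minus low was 0.11 and medium minus inconsistent 0.04, or 0.11 and 0.04 without medium 9.

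A second Ccni probe set followed the first. Probe set 1448335_s_at, whose suffix marks probes that several transcripts may share, read 9.60, 9.58, 9.64, 9.66 and 9.63 in the high mice. Its lowest, median and highest values were 9.55, 9.82 and 9.99 in medium, 9.62, 9.84 and 10.03 in low and 9.58, 9.73 and 9.93 in inconsistent mice. The high mice were tightly grouped (SD 0.03, against 0.14 in medium, 0.13 in low and 0.10 in inconsistent mice) and lay at the low end of each other group's range, with high mice 1 and 2 below every low mouse. High minus medium was -0.19 ± 0.06 (-0.18 without medium 9), high minus low -0.19 ± 0.07 and high minus inconsistent -0.11 ± 0.06. With arrays centred on their medians in place of quantile normalization, 1448335_s_at differed by -0.11 for high minus low and by 0.01 for high minus inconsistent, where the sign turned.

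The dimmest Ccni probe set, 1459602_at, was lower in high than in medium mice but level with the inconsistent mice. It read 5.94, 5.96, 5.98, 6.24 and 5.80 in high mice. Medium mice had 5.96, 6.14 and 6.99 as lowest, median and highest, low mice 5.73, 6.24 and 6.51, and inconsistent mice 5.68, 6.02 and 6.26. The medium maximum of 6.99 is the array medium 9, and high minus medium was -0.25 ± 0.11 with that array and -0.18 without it. High minus low was -0.23 ± 0.12 and high minus inconsistent 0.01 ± 0.11.

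The brightest Ccni probe set, 1416427_at, which stands above 99.1% of probe sets in mean level, was at nearly the same level in all 4 groups. It read 11.69, 11.81, 11.73, 11.73 and 11.72 in high mice, with 11.64, 11.78 and 11.90 in medium, 11.66, 11.78 and 11.94 in low and 11.61, 11.75 and 11.83 in inconsistent mice as lowest, median and highest. All 4 groups overlapped, and the means were 11.73 ± 0.05 in high, 11.77 ± 0.08 in medium, 11.78 ± 0.08 in low and 11.73 ± 0.08 in inconsistent mice, so no neighbour in that order differed by more than 1 SD. High minus medium was -0.04 ± 0.05 with a 95% interval of -0.13 to 0.06. The interval for 1448334_a_at ran from -0.42 to -0.18. The difference of 1416427_at was -0.03 without medium 9 and 0.05 with median centring, where the sign turned. Its sign was not settled within spike-in groups, at -0.11 in B and 0.03 in C. The probe sets of Ccni thus gave differences of unlike size for 1 gene.

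Only the contrast of low against inconsistent mice uses none of the arrays that chose Ccni, and there it was tested with limma and Benjamini-Hochberg adjustment over 22519 probe sets. Probe set 1459602_at averaged 6.21 ± 0.22 in low (SD, n = 8) and 5.97 ± 0.18 in inconsistent mice (n = 14), a difference of 0.24 ± 0.10 (SE) with an unadjusted p of 0.0146 and a limma adjusted p of 0.997, with 7 of 8 low mice above the inconsistent mean. The difference was 0.31 within spike-in group C, 0.26 within B and -0.19 within A, where 1 low mouse stands against 3. The other probe sets differed by 0.05, -0.07 and 0.08 (1416427_at, 1448334_a_at and 1448335_s_at), each with a limma adjusted p of 0.997. No Ccni probe set passed the threshold of 0.05.

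Ccng1, which encodes the p53-responsive cyclin G1, was nearly level across ranks. On its brightest probe set, 1420827_a_at, the high mice read 10.08, 10.05, 10.12, 10.11 and 10.04, within the range of each other group (9.87 to 10.17 in medium, 9.94 to 10.29 in low and 9.96 to 10.29 in inconsistent mice). Over its 3 probe sets high minus low ran between -0.02 and 0.02 and high minus inconsistent between 0.04 and 0.09, with limma adjusted p between 0.942 and 0.961 and between 0.676 and 0.851. The difference with the smallest unadjusted p was that of 1450017_at between medium (9.06 ± 0.10, n = 12) and inconsistent mice (8.94 ± 0.09, n = 14), 0.11 ± 0.04 (SE) with p = 0.00912 and a limma adjusted p of 0.948, and 11 of 12 medium mice were above the inconsistent mean. Without medium 9 it was 0.10. Within spike-in groups A and B it was 0.15 (2 medium and 3 inconsistent mice) and 0.13 (5 and 2). Within C it was 0.04 (5 and 9).

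Ccng2, whose product cyclin G2 is induced by FoxO factors in quiescent cells, had its highest group mean in the high mice on both probe sets. Probe set 1416488_at read 10.08, 10.20, 10.19, 10.08 and 10.11 in high mice, with lowest, median and highest values of 9.75, 9.89 and 10.06 in medium, 9.74, 9.92 and 10.14 in low and 9.71, 9.99 and 10.24 in inconsistent mice. After quantile normalization all 5 high mice exceeded all 12 medium mice, and they overlapped the upper part of the low and inconsistent ranges. The deposited intensities of high and medium mice overlapped, at 817 to 1417 and 695 to 1281. High minus medium was 0.24 ± 0.07 with medium 9, 0.24 without it and 0.10 with no normalization between arrays, described without a test because this contrast chose Ccni and, through it, the set; 0.298% of all tested probe sets lay without overlap higher in high than in medium mice. For high minus medium, Ccng2 1416488_at thus stood opposite to probe set 1448334_a_at of its chromosomal neighbour Ccni, which was at -0.30 ± 0.06. The brightest Ccni probe set, 1416427_at, was nearly level in the same mice, at -0.04 ± 0.05, and at 0.05 with median centring.

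Between high and low mice 1416488_at averaged 10.13 ± 0.06 (SD, n = 5) and 9.95 ± 0.14 (n = 8), a difference of 0.18 ± 0.07 (SE), with 5 of 5 high mice above the low mean, an unadjusted p of 0.021 and a limma adjusted p of 0.513. The difference was 0.25 within spike-in group C (4 high and 5 low mice) and -0.01 within B (1 and 2). Against inconsistent mice it was 0.15 ± 0.07 with a limma adjusted p of 0.44. The other probe set, 1448364_at, read 9.02, 8.75, 8.75, 8.92 and 9.02 in high mice, against 8.59 to 8.96 in low mice, a difference of 0.14 ± 0.08 with a limma adjusted p of 0.633. Its lowest value in the study, 8.29, was the array medium 9, and high minus medium was 0.20 ± 0.08 with that array, 0.17 without it and 0.04 with no normalization between arrays.

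**Figure D2:**
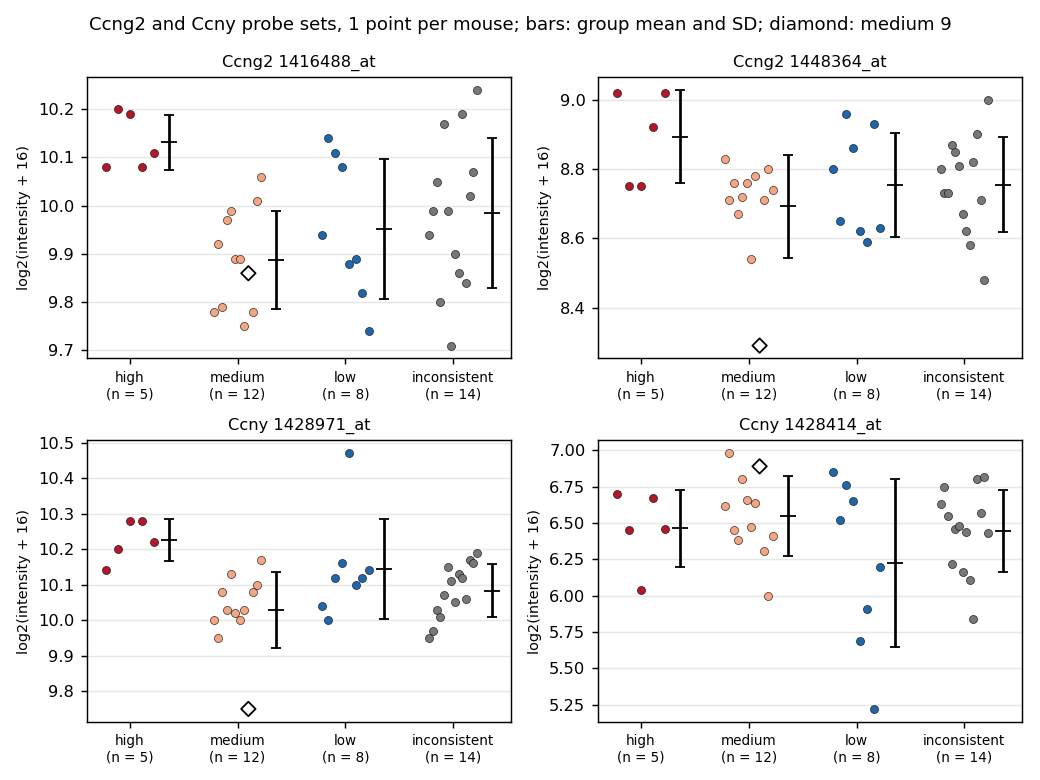
Levels of both Ccng2 probe sets and of 2 Ccny probe sets as log2(intensity + 16) on the y axis, 1 point per mouse, high mice leftmost, with group mean and SD; the open diamond is medium 9. On Ccng2 1416488_at the 5 high mice lie at or above 10.08 and the medium mice at or below 10.06, and on Ccny 1428414_at the low mice spread from 5.22 to 6.85.

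The splicing-associated cyclins did not separate the ranks. The Ccnl1 probe set 1423622_a_at read 8.45, 8.65, 8.69, 8.51 and 8.62 in high mice, inside the ranges of medium (8.20 to 8.79), low (8.34 to 8.86) and inconsistent mice (8.39 to 8.98), and high minus low was -0.05 ± 0.10 with a limma adjusted p of 0.917. Ccnl2 had high minus low differences between -0.02 and 0.10 on its 3 probe sets, with limma adjusted p between 0.809 and 0.983. On 1453740_a_at medium mice averaged 8.34 ± 0.22 (n = 12) and inconsistent mice 8.47 ± 0.16 (n = 14), a difference of -0.14 ± 0.07 (SE), p = 0.0462 unadjusted and 0.948 adjusted by limma, and it was -0.09 without medium 9. This difference was -0.30 within spike-in group A (2 medium and 3 inconsistent mice) and -0.34 within B (5 and 2). It was -0.02 within C (5 and 9). Medium 9 held the lowest value of the study on each of the 3 Ccnl2 probe sets and on Ccnl1 (8.37, 7.84, 7.04 and 8.20 on 1432195_s_at, 1453740_a_at, 1454149_a_at and 1423622_a_at).

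Ccny, the membrane-bound cyclin, had higher group means in high than in low mice on each of its 6 tested probe sets, with differences between 0.05 and 0.25, none of which passed the test. The bright probe set 1428971_at read 10.14, 10.20, 10.28, 10.28 and 10.22 in high mice, with lowest, median and highest values of 9.75, 10.03 and 10.17 in medium, 10.00, 10.12 and 10.47 in low and 9.95, 10.09 and 10.19 in inconsistent mice. The high mice filled the top of the medium and inconsistent ranges and went beyond them. High minus inconsistent was 0.14 ± 0.06 (SE), with 5 of 5 high mice above the inconsistent mean, p = 0.0139 and a limma adjusted p of 0.349, the smallest of any member. High minus low was 0.08 ± 0.06 (limma adjusted p of 0.722), and high minus medium was 0.20 ± 0.06, or 0.17 without medium 9 and 0.06 with no normalization between arrays. Medium minus low was -0.11 ± 0.05 with p = 0.0222 and a limma adjusted p of 0.997, and it was -0.09 without medium 9. Without low mouse 5, which read 10.47, medium minus low was -0.07 and high minus low 0.13.

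The dimmer Ccny probe sets varied more. Probe set 1454201_a_at read 6.92, 6.67, 6.75, 6.38 and 6.39 in high mice and between 6.14 and 6.69 in low mice, and high minus low was 0.25 ± 0.11 (SE) with 5 of 5 high mice above the low mean, p = 0.0225 and a limma adjusted p of 0.515. Without high mouse 1 this difference was 0.18. It was 0.56 within spike-in group B (1 high and 2 low mice) and 0.19 within C (4 and 5). On 1432352_at the high mice read 6.58, 6.61, 6.82, 6.72 and 6.80 and the low mice 6.12 to 6.66, a difference of 0.22 ± 0.09 with a limma adjusted p of 0.535, and low minus inconsistent was -0.17 ± 0.07 with p = 0.0251 and a limma adjusted p of 0.997. Probe set 1428414_at had a within-group SD of 0.36, larger than that of 97.7% of tested probe sets, and its medium minus low difference of 0.32 ± 0.16 had a limma adjusted p of 0.997. That difference was 0.29 without medium 9 and 0.18 without low mouse 7, which held the low group's lowest value, 5.22. It was 0.45 within spike-in group C (5 medium and 5 low mice), -0.06 within B (5 and 2) and -0.05 within A (2 and 1). The remaining probe set 1441283_at had a mean level of 4.56, brighter than 20.5% of probe sets only, and was not tested. The dimmest member that was tested, Ccni 1459602_at, stood above 55.3% of probe sets.

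**Figure D3:**
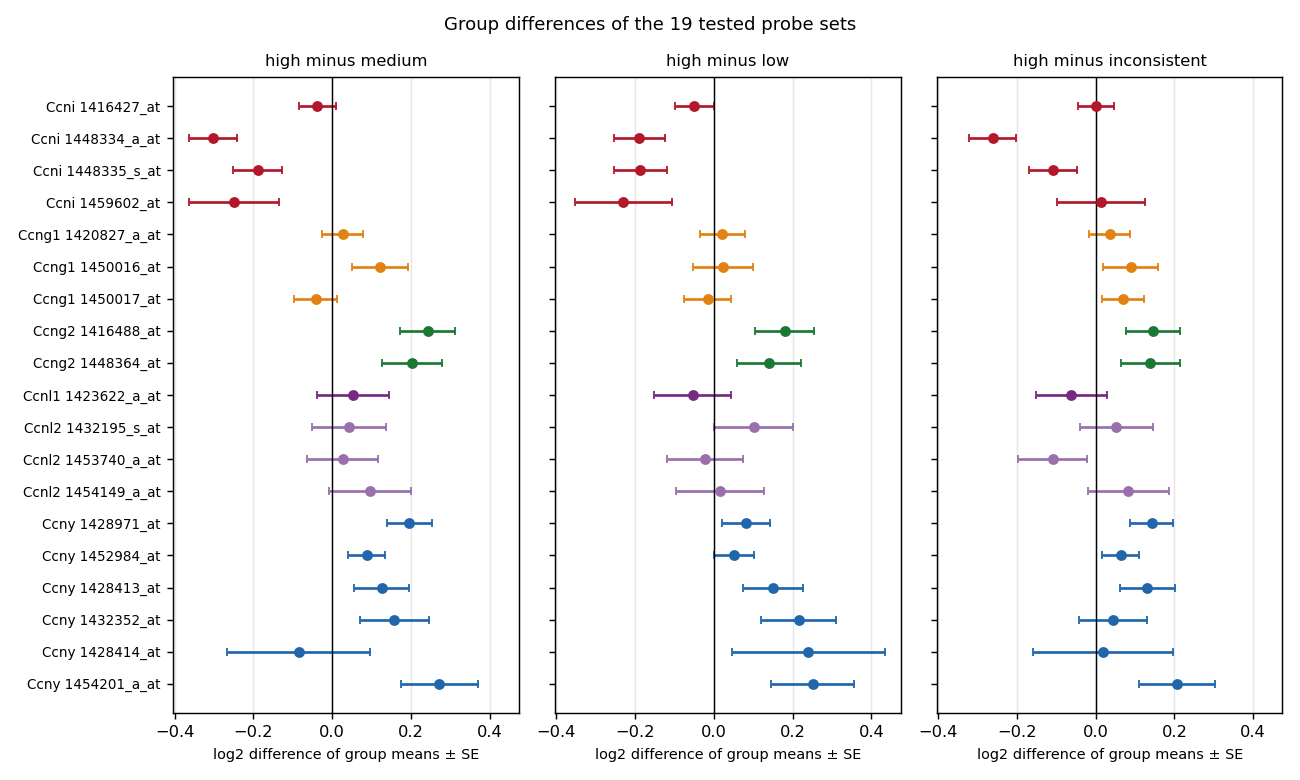
Differences of group means on the log2(intensity + 16) scale (x axis) with their SE for the 19 tested probe sets (y axis), for high minus medium, high minus low and high minus inconsistent mice, which share the 5 high arrays; colours mark genes. All 4 Ccni probe sets lie below 0 and both Ccng2 probe sets above 0 in the first 2 panels (with median centring, Ccni 1416427_at is at 0.05 in both), and the 6 Ccny probe sets lie between 0.05 and 0.25 for high minus low.

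No member probe set passed the threshold in any contrast. Between high and low mice 0 of 15 tested member probe sets (Ccni left out) were called at a limma adjusted p under 0.05, against 0.00444% of all probe sets (1 of 22519), and 3 of 15 had an unadjusted p under 0.05, against 8.63% of all. The high and low mice overlapped on all 19 probe sets, where 0.209% of all probe sets lay lower and 0.293% higher in high mice without overlap. For medium against low mice the counts were 0 of 15, against 0% of all, and 2 with an unadjusted p under 0.05, against 3.6%. For high against inconsistent mice they were 0 of 15, against 0.00444% of all, and 3 unadjusted, against 10.9%. The high and inconsistent mice overlapped on all 19, where 0.0444% of all probe sets lay lower and 0.0888% higher in high mice without overlap. Medium against inconsistent mice gave 0 of 15, against 0% of all, and 2 unadjusted, against 4.72%. Low against inconsistent mice gave 0 of 19, against 0% of all, and 2 unadjusted, against 4.22%. The median difference of the 19 probe sets was 0.02 for high minus low (12 above 0) and 0.05 for high minus inconsistent (15 above 0). All tested probe sets had a median of 0.01 and 52.1% above 0 in each. These contrasts share the high arrays, and probe sets of a gene are not independent.

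Whether the probe sets of a gene vary together over mice was asked of the deviations of the 39 arrays from their group means, which leaves the group differences out. Of 28 pairs of probe sets within a gene, 10 correlated above 0 and 0 below 0 past a Benjamini-Hochberg adjusted permutation p of 0.05 (100000 two-sided permutations within groups). These were 3 of 6 pairs of Ccni, 2 of 3 of Ccng1, 0 of 1 of Ccng2, 3 of 3 of Ccnl2 and 2 of 15 of Ccny. Without medium 9 the count was 7, and with the spike-in group as a block it was 6.

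Within Ccni the 3 dimmer probe sets followed each other among mice of the same rank, and no such relation was detected for the brightest one. Probe sets 1448334_a_at and 1448335_s_at had r = 0.48 and rho = 0.52 (adjusted permutation p of 0.00868 and 0.00482), r = 0.40 without the 2 arrays farthest from the median, 0.63 within spike-in group B and 0.34 within C. Probe sets 1448335_s_at and 1459602_at had r = 0.54 and rho = 0.56 (adjusted permutation p of 0.00767 and 0.00413), 0.60 without 2 arrays, 0.51 within B and 0.51 within C. For 1448334_a_at and 1459602_at r was 0.42 and rho 0.37 (adjusted permutation p of 0.0292 and 0.0718), 0.33 without 2 arrays, 0.01 within B and 0.45 within C. The brightest probe set 1416427_at had r = -0.24, -0.13 and -0.10 with 1448334_a_at, 1448335_s_at and 1459602_at (adjusted permutation p of 0.355, 0.674 and 0.758). With the spike-in group as a block, the first pair had r = 0.36 (adjusted permutation p of 0.0572), the second 0.47 (0.0376) and the third 0.33 (0.117).

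**Figure D4:**
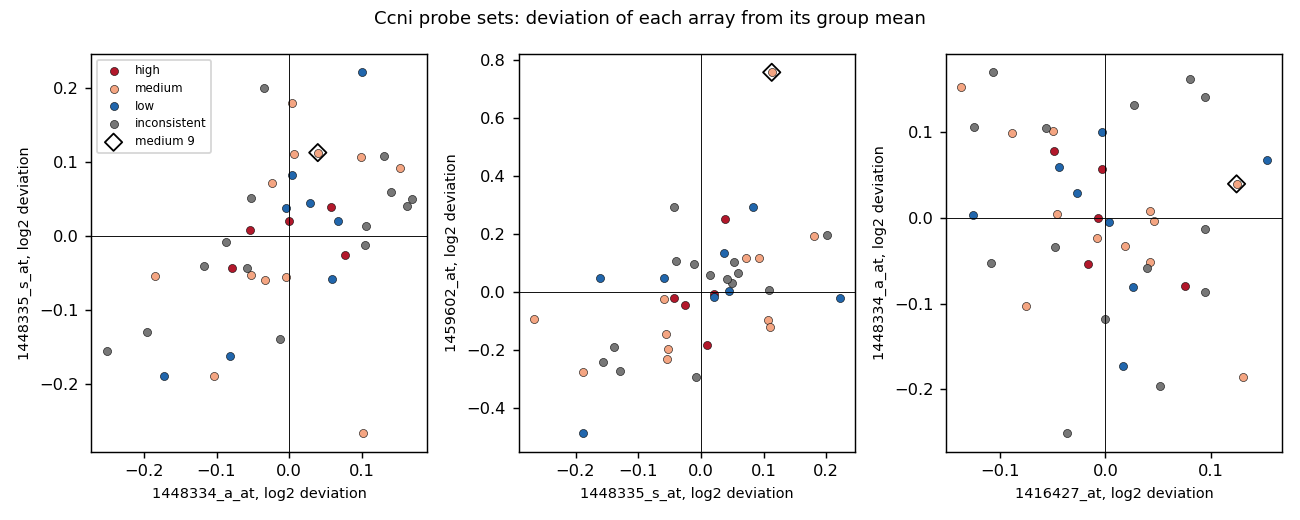
Deviation of each of the 39 arrays from its group mean (log2 units on both axes) for 3 pairs of Ccni probe sets; colours give the group and the open diamond marks medium 9. The left and middle pairs rise together (r = 0.48 and 0.54), and the right pair, with the brightest probe set on the x axis, does not (r = -0.24).

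The other genes differed in how well their probe sets kept together. Ccnl2 was the most coherent, with r = 0.74, 0.69 and 0.56 (rho = 0.62, 0.59 and 0.39) and adjusted permutation p of 0.00028, 0.000747 and 0.00868, and 0.60, 0.46 and 0.41 without the 2 farthest arrays. Ccng1 had r = 0.66 between 1420827_a_at and 1450016_at (adjusted permutation p of 0.0007), 0.83 within spike-in group C and 0.07 within B, and 0.14 between 1450016_at and 1450017_at. The Ccng2 pair had r = 0.16 and rho = 0.06 (adjusted permutation p of 0.566). For Ccny, r was 0.49 between 1428413_at and 1428414_at (adjusted permutation p of 0.00767) and 0.46 between 1428971_at and 1452984_at (0.0382), where it was 0.25 without 2 arrays, while 1428971_at and 1428414_at had r = -0.42 (0.0664). Between probe sets of different members, 143 pairs ran between r = -0.56 and 0.53 with a median of -0.02, and the 28 pairs within a gene had a median of 0.0033.

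**Figure D5:**
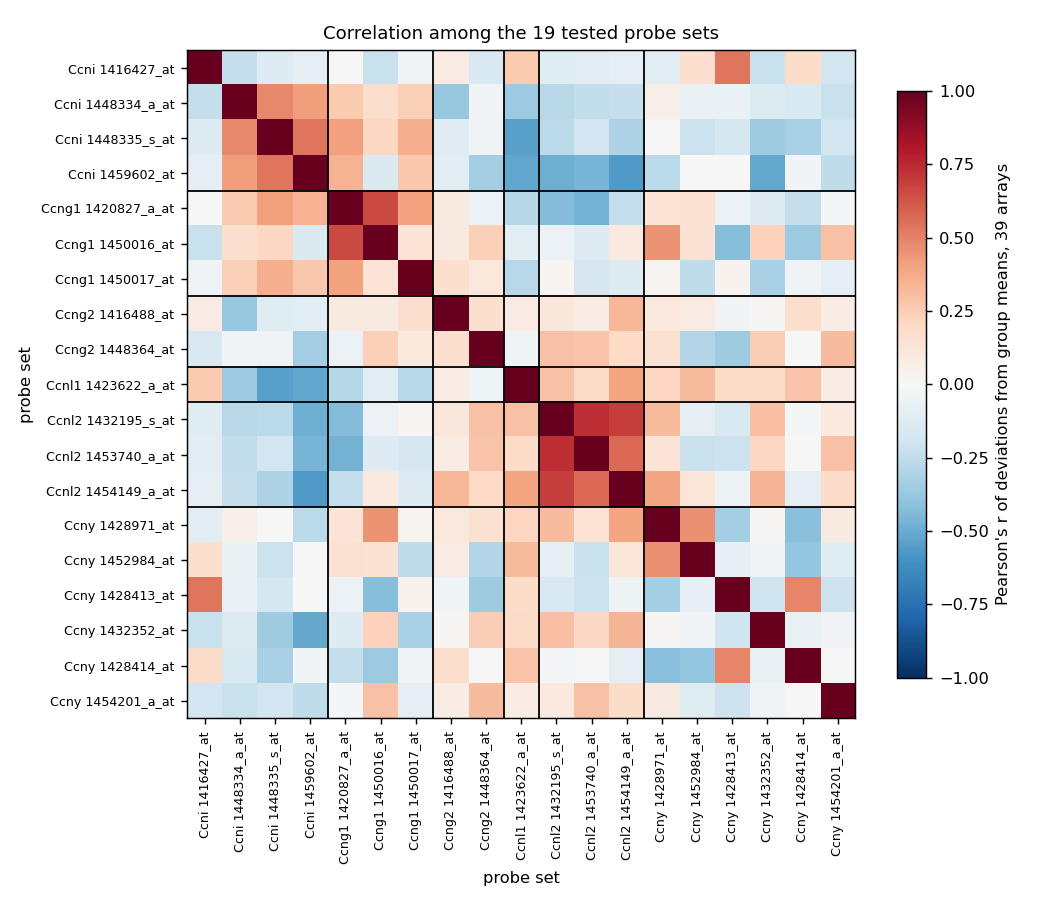
Pearson's r between the 19 tested probe sets over 39 arrays, after subtracting group means (red above 0, blue below 0; black lines separate genes on both axes). The Ccnl2 block is red throughout (r of 0.56 to 0.74), the Ccni block is red except for its brightest probe set, and the Ccny block is mixed (r of -0.42 to 0.49).

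Ccni and Ccng2, opposite in direction on probe sets 1448334_a_at and 1416488_at, were also compared among mice of the same rank. Over the 8 pairs of their probe sets the strongest correlation was that of 1448334_a_at with 1416488_at, r = -0.38 and rho = -0.33 (permutation p of 0.0362 and 0.0577, adjusted 0.18 and 0.462), -0.26 without the 2 farthest arrays, -0.71 within spike-in group B and -0.42 within C. None of the 8 pairs passed the threshold.

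RNA quality was read from the actin control probe sets, as the log2 level at the 3' end minus that at the 5' end. It averaged 0.56 ± 0.02 in high, 0.60 ± 0.16 in medium, 0.52 ± 0.06 in low and 0.51 ± 0.04 in inconsistent mice (SD), with the highest value, 1.10, on medium 9. Over 39 arrays no member correlated with it past the adjusted threshold (lowest adjusted permutation p of 0.131). The largest r, 0.58 for Ccni 1459602_at (rho = 0.24), was 0.26 without the 2 farthest arrays. The same reading from Gapdh averaged -0.51 ± 0.02 in high and -0.49 ± 0.08 in medium mice (SD). In low and inconsistent mice it averaged -0.48 ± 0.06 and -0.46 ± 0.08. Its correlation with the members was not tested.

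Within groups, most bright members varied little between mice. The within-group SD of Ccni 1416427_at was 0.08, at the 3.85th percentile of all tested probe sets, and that of Ccni 1448334_a_at was 0.11, at the 15.6th, beside a median of 0.16. Compared with probe sets of like brightness these stood at the 38.8th and 53.8th percentile. Ccny 1452984_at was narrow also among its like (SD 0.08, percentile 4.51), and Ccny 1428414_at wide (percentile 95.9).

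Genes whose deviations over the 39 arrays most resembled those of a member were named without a test, since probe sets of a kind share arrays and depth. For Ccni 1416427_at they were Mindy2 (a deubiquitinase, r = 0.84), Arhgef12 (a guanine nucleotide exchange factor, 0.80), Ube2h (a ubiquitin-conjugating enzyme, 0.80) and Spock1 (an extracellular proteoglycan, 0.79). For Ccni 1448334_a_at, added after its values were seen, they were Hnrnpdl (an RNA-binding protein, 0.78), Fyttd1 (an mRNA export factor, 0.77), Gsto1 (a glutathione transferase, 0.76) and Araf (a Raf kinase, 0.75), so the 2 probe sets shared none of these names. Ccng1 resembled Srpk2 (a kinase of splicing factors, 0.71) and Lypla1 (0.69), and Ccng2 resembled Skap2 (0.63) and Thap2 (0.63). Ccnl1 resembled Dlg2 (a postsynaptic scaffold, 0.74) and Mcl1 (an anti-apoptotic protein, 0.72). Ccnl2 resembled Srsf6 (a splicing factor, 0.80) and Denn2b (0.77), and Ccny resembled Aasdhppt (0.78) and Bzw1 (0.76).

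Partners and relatives of these cyclins were counted from 6 lists, 1 probe set per gene, and no gene passed the threshold in any of the 5 tested contrasts. Over all tested probe sets, 52.1% had a high minus low difference above 0. Of 15 tested other cyclins (of 23 listed), 11 had a high minus low difference above 0, with a median of 0.08. Ccnjl averaged 7.60 ± 0.16 in high and 7.30 ± 0.23 in low mice, a difference of 0.31 ± 0.13 (SE, limma adjusted p of 0.506), and Cables2, a Cdk-binding protein, differed by -0.13 (adjusted 0.578). The kinase list held cyclin-dependent kinases together with the Cdk5 activators Cdk5r1 and Cdk5r2 and the cyclin G-associated kinase Gak. Of its 18 tested genes (of 21), 14 were above 0, with a median of 0.02. Cdk10 averaged 7.83 ± 0.04 in high and 8.02 ± 0.16 in low mice, a difference of -0.19 ± 0.07 (limma adjusted p of 0.489), and Cdk16, the partner of cyclin Y, differed by 0.12 (adjusted 0.713).

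The phosphatase PP2A, partner of the G cyclins, gave 4 of 9 subunits above 0 and a median of -0.05, with the catalytic subunit Ppp2cb at 0.15 ± 0.06 (limma adjusted p of 0.467) and the regulatory subunit Ppp2r5c at -0.14 ± 0.06 (0.504). Of 11 tested genes of the p53 pathway (of 13), 6 were above 0, with a median of 0.0043. Mdm2, the ubiquitin ligase that restrains p53, differed by -0.23 ± 0.11 (limma adjusted p of 0.564) and the p53 target Perp by -0.52 ± 0.26 (0.58). Of 9 tested FoxO factors and targets (of 10), 7 were above 0 for high minus low, with a median of 0.16. For high minus inconsistent 8 were above 0, with a median of 0.15. All probe sets had a median of 0.01 and 52.1% above 0 in each, and no test was made of the list. Foxo3 averaged 8.26 ± 0.15 in high and 8.02 ± 0.14 in low mice, a difference of 0.24 ± 0.10 (limma adjusted p of 0.501), and the repressor gene Bcl6 differed by 0.25 ± 0.13 (0.579). Of 9 tested partners of cyclin Y and of the Wnt receptors (of 10), 4 were above 0, with a median of -0.02, among them the receptor Fzd1 at -0.12 ± 0.10 (limma adjusted p of 0.749) and the Wnt feedback gene Axin2 at -0.09 ± 0.12 (0.868).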

How the data were processed

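Affymetrix expression arrays of 41 hippocampi were analysed. The authors' deposited values are linear intensities, 1 per probe set and array (0.0112 to 13549). Partek and RMA are named without versions per the submitters' processing notes. The array medians differed, so the intensities were quantile-normalized over the 41 arrays and expressed as log2(intensity + 16). Probe sets with a mean at or above the median of the 45037 non-control probe sets (22519) were tested with limma 3.58.1 in R 4.3.3, with 39 arrays and 4 group means in 1 fit and Benjamini-Hochberg adjustment. The 64 control probe sets and the 2 incomplete mice were left out. Each group mean rests on 5 to 14 arrays, which limits the precision. Symbols came from the array annotation: 34945 probe sets had 1 symbol, 932 several and 9160 none. The members and gene lists were chosen with earlier results of these data known. Named list genes are the 2 with the smallest unadjusted p in high minus low, and most similar genes the 4 (Ccni) or 2 with the highest r. Labels name each mouse separately. Fits were checked on simulated data. Alternatives changed the filter, normalization, offset, weights, arrays and blocks.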

Additional observations from a re-analysis of the deposited data

Results flagged for a closer look

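Each of 19 tested probe sets was searched for a mouse far from the rest of its group in the 5 high and the 8 low mice, which made 38 searches, of which chance flags about 1 in 20. In 2 a mouse stood apart. On Ccni 1459602_at low mouse 1 had the lowest level of its group, 5.73, and the next low mouse had 6.19. On Ccny 1428971_at low mouse 5 had the highest level of its group, 10.47, and the next had 10.16. Low mouse 5 also had the lowest array median of the study, 22.4 intensity units, and the part of that in its Ccny level was not tested.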

How the results depend on the processing

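The calls were recomputed under 15 other settings and with each of the 39 arrays left out in turn, and the count of called member probe sets stayed at 0 in each contrast a setting could give (the fit without inconsistent mice has 2 of the 5); the listed genes gave 0 under the 5 other settings run for them. The high minus medium difference of Ccni 1448334_a_at lay between -0.32 and -0.28 when 1 array was left out. It was -0.44 with no normalization between arrays, where the median of all probe sets itself shifted by -0.17; the high minus medium differences of both Ccng2 probe sets were then 0.10 and 0.04, and that of Ccny 1428971_at 0.06. Without normalization, 2 differences that failed the test changed sign: low minus inconsistent of Ccni 1448334_a_at became 0.014 and medium minus inconsistent of Ccnl2 1453740_a_at became 0.069. Of 62 further tested differences, none of them called and none with an unadjusted p under 0.05, 42 changed sign in at least 1 setting, the largest of these being 0.11 in size. The agreeing pairs numbered 28 of 28 with no normalization, 6 with the spike-in group as a block and 1 within spike-in group C alone (23 arrays), against 10; the cause was not tested.

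Over all probe sets, calls for high against low were 3 with no brightness filter, 26 with array weights, 2 without the inconsistent mice, and 0 with median centring, no normalization, only the compared groups or no choroid-bright arrays. For high against inconsistent they were 146 with array weights, 22 with the replicate block, 2 with no brightness filter, and 0 with median centring, no normalization, only the compared groups, inconsistent mouse 2 moved to medium, no choroid-bright arrays, the spike-in block or spike-in group C alone. The labels number the mice within each group, and 15 same-number pairs of high mice with others had correlations of deviations between -0.21 and 0.10. Pairs among the other groups and pairs of unlike number were not computed. The labels give each number only as a sample number within its group and name no pairs, so a pairing of mice has no basis in them. With the replicate block no member was called and Ccni 1448334_a_at differed by -0.24 between high and medium mice. The 5 high mice limit every contrast that uses them.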

Other observations

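The 2 mice with incomplete behavioural data entered no comparison. Their Ccni levels were 10.67 and 10.57 on 1448334_a_at, 9.66 and 9.76 on 1448335_s_at, 5.89 and 6.00 on 1459602_at and 11.76 and 11.77 on 1416427_at. On Ccng2 1416488_at they read 9.94 and 10.07, and on Ccny 1428971_at 10.09 and 10.16. Ccny 1441283_at, too dim to be tested, averaged 4.46 ± 0.42 in high (SD, n = 5), 4.50 ± 0.31 in medium (n = 12), 4.61 ± 0.18 in low (n = 8) and 4.60 ± 0.24 in inconsistent mice (n = 14).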
